A study of Homo sapiens with 6 samples.

Results

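The hormone-starved T47D library (T0) was compared with the 4 libraries of T47D cells given estradiol (E2) in the size of the compartment score of each bin, and not only in its sign. The members were the autosomal bins of 100 Kb with a score other than 0 in all 6 deposited files, 26484 of the 28823 autosomal bins (91.9%) and of 30376 bins in all, in 5 of the 6 libraries of the series. T47D is an established estrogen receptor-positive line from a luminal breast carcinoma. Parental T47D cells were starved of hormone for 72 h and either collected with no E2 (T0) or given 100 nM β-estradiol and collected after 1, 4, 16 or 24 h (T1, T4, T16 and T24), so that all 5 parental libraries share the starvation. The sixth library, from tamoxifen-resistant T47D cells (TamR), was labelled untreated, while the methods of the study describe culture with tamoxifen. TamR entered no difference, and its scores are given beside some loci. Contacts were measured by tethered conformation capture (TCC), a form of Hi-C with ligation on a solid surface, and the score is the first eigenvector of the contact matrix between chromosomes. Each condition has 1 library in the series, so no difference below has a replicate check and no test was made. The E2 libraries are 4 time points and not replicates, and their spread holds both time and library.

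Chromosomes fold into compartment A, which is gene-rich, GC-rich and largely active, and compartment B, which is mostly inactive and often near the nuclear lamina. A positive eigenvector score places a bin in A and a negative score in B, and the size of the score says how strongly the contacts of the bin follow that pattern. Estradiol binds estrogen receptor α, which binds DNA at estrogen response elements, largely at enhancers opened by FOXA1, and recruits coactivators to its target genes. Scores are given here multiplied by 1000. The squared scores of each library summed to between 0.998 and 0.999 over all bins, so larger scores in some bins of a library come with smaller ones in its other bins. The files hold no contact counts, and the sequencing depth is unknown from them.

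The data showed a small difference between T0 and the E2 libraries over most of the genome, with larger differences at some loci. Of all protein-coding genes, 4.79% lay in bins called lower in T0 than in all 4 E2 libraries and 4.71% in bins called higher, by the rule given below. Of 36 E2-induced genes, 5 (PGR, TFF1, TFF3, CXCL12 and EGR3) were lower in T0 and 2 (BCL2 and TPD52L1) were higher, while GREB1, MYC and CCND1 were not called. TFF1 and TFF3 share 1 bin, and with scores replaced by ranks TFF1, TFF3, BCL2 and TPD52L1 were no longer called. Of 19 luminal transcription factors, 3 (the ERα gene ESR1, its pioneer factor gene FOXA1 and TRPS1) were higher in T0 and 0 lower, and ESR1 was not called over its whole gene. The score on chromosome 19, the most gene-rich chromosome, was on average 0.588 higher in the E2 libraries than in T0, and 0.368 higher without T24.

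The 250 bases before a RefSeq start are shown for 1 gene of each direction, because a start in this table outside annotated exons was found for only 2 of the 10 E2-induced and luminal factor genes sought (6 had an entry). The 5-letter arm of the palindromic estrogen response element, called a half-site (GGTCA, or TGACC on the other strand), is in capitals where it occurs. The sequences come from RefSeq (table build GRCh38.p14) and were placed on GRCh37 by an exact match. CXCL12 lay in a bin lower in T0. Its window is at chr10:44880546-44880795 on the minus strand, inside the gene, in an intron of the longer annotated transcripts. ESR1 lay in a bin higher in T0. Its window is at chr6:151977557-151977806 on the plus strand and ends 20 bases before the annotated start of the gene.
CXCL12: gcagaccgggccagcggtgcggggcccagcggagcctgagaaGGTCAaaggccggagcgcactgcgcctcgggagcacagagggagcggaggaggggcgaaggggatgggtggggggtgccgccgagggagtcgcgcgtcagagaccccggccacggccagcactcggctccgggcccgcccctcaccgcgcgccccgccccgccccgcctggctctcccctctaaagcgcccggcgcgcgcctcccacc
ESR1: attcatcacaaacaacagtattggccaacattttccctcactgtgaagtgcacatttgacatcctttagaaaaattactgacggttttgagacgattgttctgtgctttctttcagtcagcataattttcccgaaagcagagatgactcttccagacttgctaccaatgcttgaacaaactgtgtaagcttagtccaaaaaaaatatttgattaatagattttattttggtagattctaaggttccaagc
The CXCL12 window holds 1 half-site, which begins 208 bases before the start, and the ESR1 window shown holds none. This ESR1 window is 1 of 3 entries of the gene outside exons, and the others are not shown. Of all 35116 promoter windows of this length, 32.6% hold the half-site on either strand. The windows are far shorter than a bin of 100 Kb, and the scores were not measured at this scale.

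The first question was how far T0 stood from the E2 libraries relative to the distances among them. The root mean square difference of the score over the 26484 bins was 0.677 between T0 and T1, 0.647 between T0 and T4, 0.750 between T0 and T16 and 1.02 between T0 and T24. Among the E2 libraries it was 0.502 between T1 and T4, 0.555 between T1 and T16, 0.530 between T4 and T16, 0.786 between T1 and T24, 0.776 between T16 and T24 and 0.896 between T4 and T24. The distances of T0 to T1, T4 and T16 were larger than any distance among these 3 libraries, while the 3 distances of T24 to the other E2 libraries were larger than these distances of T0. The mean was 0.774 ± 0.170 (SD, n = 4 pairs) for T0 with an E2 library and 0.674 ± 0.165 (SD, n = 6 pairs) for pairs of E2 libraries, a ratio of 1.15, and the pairs share libraries. Without T24 the means were 0.692 and 0.529, a ratio of 1.31. By distance over all bins, T24 stood at least as far from T1, T4 and T16 (mean 0.819) as T0 did (mean 0.692).

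**Figure D1:**
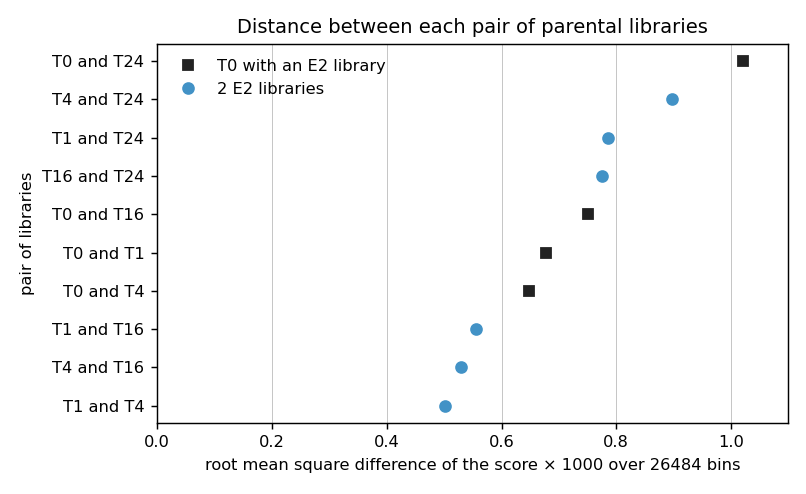
Root mean square difference of the compartment score (x axis, score × 1000, from 0) for each of the 10 pairs of parental libraries (y axis), with black squares for T0 with an E2 library and blue circles for 2 E2 libraries. T0 lies 0.647 to 0.750 from T1, T4 and T16, above the 0.502 to 0.555 among those 3, and the pairs with T24 lie at 0.776 or more.

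The step from T0 to T1, the first hour of E2, had a root mean square of 0.677, against 0.502 from T1 to T4, 0.530 from T4 to T16 and 0.776 from T16 to T24. A change that extends over a domain appears as a correlation between the differences of adjacent bins. This correlation was 0.397 for the step from T0 to T1, 0.300 and 0.261 for the next 2 steps and 0.621 for the step from T16 to T24. For the E2 mean minus T0 it was 0.502 between adjacent bins and 0.245 between bins 10 apart (1000 Kb). Adjacent bins share contacts and sequence content, so these values are descriptions. T0 was also the least smooth library along the chromosome. The median absolute difference between adjacent bins was 0.704 in T0, 0.580 in T1, 0.586 in T4, 0.589 in T16 and 0.584 in T24. Its part in the differences of single bins was not tested.

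In a typical bin the shift was small. The median absolute difference between the E2 mean and T0 was 0.422 (quartiles 0.198 and 0.737), beside a median absolute T0 score of 4.93. The median SD of the 4 E2 libraries in a bin was 0.397 and their median range 0.884. The difference exceeded the SD of the E2 libraries in 52.6% of bins, and T0 fell outside the range of the 4 E2 scores in 13242 bins, below all 4 in 23.2% of bins and above all 4 in 26.8%. Among 5 libraries that do not differ by treatment, each would still fall outside the range of the other 4 in many bins. The same shares were not computed for an E2 library, so they do not by themselves set T0 apart. A bin was called lower in T0 (or higher in T0) where T0 lay below (or above) all 4 E2 scores and its gap to the nearest of them was larger than their range. By this rule 1099 bins (4.15%) were lower in T0 and 1464 bins (5.53%) were higher in T0. These shares describe 5 libraries and carry no error rate.

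In the bins lower in T0, the median score was -0.889 in T0, 0.247 in T1, 0.289 in T4, 0.405 in T16 and 0.313 in T24, negative in T0 and positive in the E2 libraries. The median difference in these bins was 0.972 for T1, 0.971 for T4, 1.03 for T16 and 1.06 for T24. In the bins higher in T0, the median score was 2.24 in T0, 1.24 in T1, 1.29 in T4, 1.08 in T16 and 0.980 in T24, and thus stayed in A. The rule favours bins in which the E2 libraries lie close together, with a median SD of 0.219 and 0.195 in the 2 groups against 0.397 over all bins, so the likeness of the E2 libraries in called bins is not a finding. Most called bins kept their compartment. Of the bins lower in T0, 479 were in A and 498 in B in all 5 libraries and 122 (11.1%) changed sign in at least 1 library, against 7.04% of all bins. Of the bins higher in T0, 795 (54.3%) were in A in all 5 libraries, 567 (38.7%) in B in all 5 and 102 (6.97%) changed sign, against 43.0% in A and 50.0% in B over all bins. A comparison by sign alone leaves out 977 of the 1099 bins lower in T0.

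The difference depended on the level of the score. Bins were divided into 10 groups of equal number by the mean score of the 5 parental libraries, and decile 10 held the strongest A bins. In decile 10 the mean score was 11.5 in T0, 11.8 in T1, 11.5 in T4, 11.7 in T16 and 12.3 in T24. The mean E2 minus T0 difference there was 0.329 ± 0.349 (SD over the 4 E2 libraries), with 0.315 for T1, -0.00488 for T4, 0.193 for T16 and 0.814 for T24. In decile 8, A bins of middle strength, the mean was 4.51 in T0, 4.29 in T1, 4.46 in T4, 4.34 in T16 and 4.04 in T24, a difference of -0.233 ± 0.177 with the same sign in all 4 libraries. In decile 9 the 4 libraries lay between -0.0832 and -0.121 of T0 (mean -0.101 ± 0.0159), the narrowest spread of any decile. In decile 1, the deepest B bins, T24 alone departed from T0 by more than 0.1, with 0.605 against 0.0434 at T1, -0.0939 at T4 and 0.0115 at T16. T24 carried much of the mean, and without it the difference was 0.160 in decile 10, -0.00493 in decile 1 and -0.161 in decile 8. On ranks, which give every library the same distribution of values, the differences were 0.0115 in decile 10, 0.00222 in decile 8 and -0.0103 in decile 1. Ranks force nearly equal decile means in libraries that order the bins alike. Such small differences were thus set in advance, and what the dependence on level rests on was not tested.

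**Figure D2:**
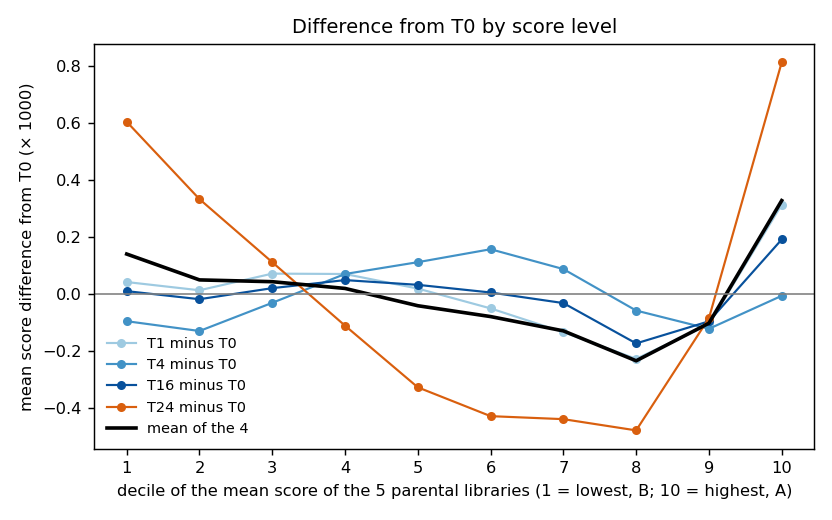
Mean score difference from T0 (y axis, score × 1000) in each decile of the mean parental score (x axis), with a line for each E2 library and a thick black line for their mean. T24 reaches 0.814 in decile 10 and -0.477 in decile 8, T4 stays between -0.128 and 0.158, and in decile 9 all 4 libraries lie just below T0.

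Called bins were placed unevenly over these levels. Bins higher in T0 made up 9.89% of decile 8 and 9.37% of decile 9, against 1.74% of decile 10 and 1.32% of decile 1. Bins lower in T0 were most frequent near the border of the compartments, with 5.25% of decile 5 and 5.74% of decile 6, and least frequent in decile 1 (2.15%). The call is harder to pass where the E2 libraries lie apart. The SD of their mean differences was 0.349 in decile 10, 0.315 in decile 1, 0.177 in decile 8 and 0.0159 in decile 9. Its part in these shares was not tested. With the bins ordered by TamR, which enters neither side of the difference, the difference was 0.370 in decile 10, -0.141 in decile 8 and 0.0728 in decile 1, larger than above in decile 10 and smaller in size in the other two.

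GC content and gene density moved with the difference only weakly from bin to bin. Over 26484 bins, Pearson's r of the E2 minus T0 difference was 0.152 with GC content and 0.0886 with the number of gene starts. For single libraries, r with GC content was 0.123 for T1, 0.0343 for T4, 0.117 for T16 and 0.207 for T24. The score itself had an r of 0.715 with GC content in T0 and of 0.719 to 0.748 in the E2 libraries, the highest being that of T24. Within each of the 10 score deciles, r of the difference with GC content was positive, between 0.0760 and 0.244, while r with gene starts was positive in 7 of the 10 and averaged 0.0315. The median GC content was 41.4% in bins lower in T0, 40.2% in bins higher in T0 and 39.9% in all bins. A gene start was present in 41.6%, 38.9% and 38.1% of these bins. The number of sites of HindIII, the enzyme that cut the chromatin, had an r of -0.0806 with the difference, and bins of both directions held a median of 29 or 30 sites.

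Averaged over whole chromosomes, the E2 minus T0 difference followed GC content and gene density closely, and that of T4 alone less so. Chromosome 19 had a mean score of 6.93 in T0, 7.39 in T1, 7.07 in T4, 7.42 in T16 and 8.18 in T24. All 4 E2 libraries were above T0 there, by 0.467, 0.141, 0.497 and 1.25. The mean difference of 0.588 fell to 0.368 without T24 and was 0.373 on ranks. Chromosome 22 scored 8.08 in T0 and between 8.20 and 8.66 in the E2 libraries (mean difference 0.332), and 9.52% of its bins were lower in T0, a higher share than on any other chromosome. Chromosome 16 followed with a difference of 0.245 and chromosome 17 with 0.182, but on both T4 lay slightly below T0, by -0.00376 and -0.0209. At the other end, the gene-poor chromosomes 4 and 13 had differences of -0.129 and -0.128 with all 4 E2 libraries below T0. Chromosome 18, also gene-poor, had a difference of only -0.0255, with T24 above T0 by 0.148 and the other E2 libraries below T0. In all, 6 chromosomes (1, 12, 14, 19, 20 and 22) had all 4 E2 libraries above T0, 6 chromosomes (2, 3, 4, 5, 7 and 13) had all 4 below, and the other 10 were mixed. Across the 22 chromosomes, r of the mean difference was 0.912 with median GC content and 0.930 with gene starts per bin, and 0.878 with GC content when chromosome 19 was left out. The 4 libraries gave 0.941 (T1), 0.614 (T4), 0.796 (T16) and 0.863 (T24) with GC content, and all of them share T0. Without chromosome 19 they gave 0.916 (T1), 0.469 (T4), 0.696 (T16) and 0.796 (T24). Chromosome means accounted for 4.34% of the variance of the difference over bins.

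**Figure D3:**
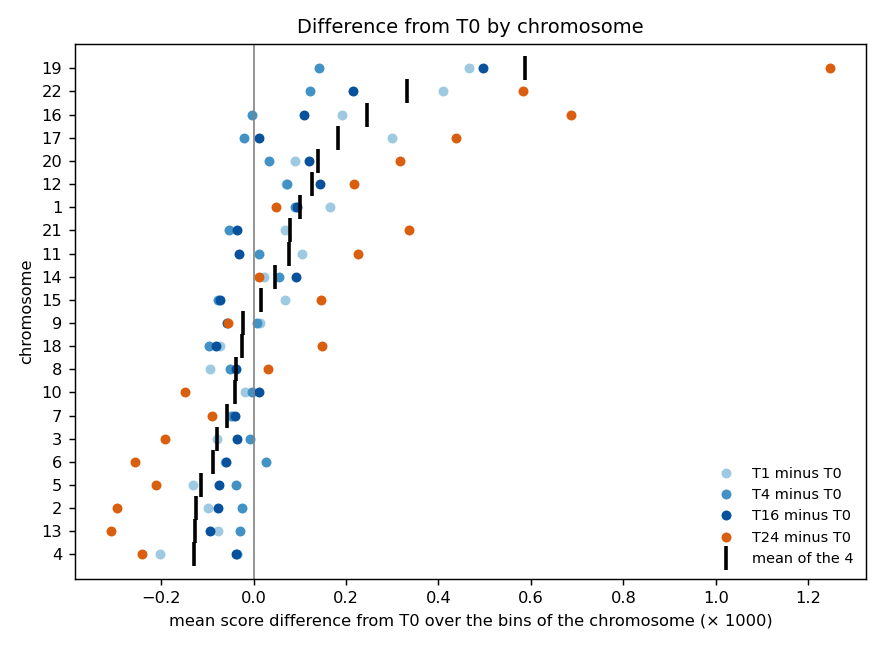
Mean score difference from T0 (x axis, score × 1000) over the bins of each autosome (y axis, ordered by the mean of the 4 E2 libraries), with a circle for each E2 library and a black bar for their mean. Chromosomes 19 and 22 lie at the top with means of 0.588 and 0.332, T24 is the farthest to the right on chromosome 19 at 1.25, and T4 stays within 0.141 of T0 throughout.

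Position along the chromosome arm moved with the difference as well. In the 1896 bins within 5 Mb of a chromosome end the mean score was 4.34 in T0, 4.55 in T1, 4.39 in T4, 4.66 in T16 and 5.10 in T24, a mean difference of 0.330, and their median GC content was 46.9%. In the 1730 bins within 5 Mb of the centromere gap of the assembly it was -0.900 in T0, -0.782 in T1, -0.826 in T4, -0.790 in T16 and -0.307 in T24, a difference of 0.224 at a median GC content of 40.2%. Elsewhere the difference was -0.0433 over 22858 bins. T24 was again the largest, and without it the differences were 0.186 near the ends and 0.101 near the centromere gap. The share of bins lower in T0 varied little, with 4.85% near the ends, 4.10% near the centromere gap and 4.09% elsewhere. The share higher in T0 varied more, with 2.58%, 3.93% and 5.89% in the same order.

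Called bins were mostly isolated. Of 2118 runs of adjacent bins called in 1 direction, 1797 (84.8%) were single bins, and 79 runs held 3 bins or more. The single bins made up 70.1% of the called bins, and 766 called bins lay in runs of 2 or more. The longest run higher in T0 spanned 9 bins on chromosome 8, chr8:116100001-117000000 of hg19, with TRPS1 as its only whole gene. TRPS1 encodes a GATA-type zinc finger repressor of luminal breast epithelium. The mean score of the run was 2.04 in T0, 0.714 in T1, 0.926 in T4, 0.660 in T16 and 0.744 in T24, and -1.19 in TamR. The E2 mean was lower by 1.28 (SD over the E2 libraries 0.115). On both sides the E2 mean stayed below T0, so that 28 adjacent bins (2.8 Mb) had this sign and 18 of them were called. In the bin of the TRPS1 start the score was 3.81 in T0 and 2.42, 2.38, 2.19 and 2.17 in T1, T4, T16 and T24.

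The other 3 longest runs higher in T0 held 5 bins each. At chr8:18000001-18500000, with the arylamine N-acetyltransferase genes NAT1 and NAT2, the mean was 5.67 in T0, 3.87 in T1, 4.04 in T4, 4.13 in T16 and 3.46 in T24, the E2 mean lying 1.79 below T0. NAT1 is highly expressed in luminal breast tumours. At chr13:33100001-33600000, with PDS5B, a regulator of cohesin, it was 4.49 in T0, 3.12 in T1, 3.35 in T4, 3.31 in T16 and 2.78 in T24. At chr18:60600001-61100000, with BCL2, an inhibitor of apoptosis, KDSR, an enzyme of sphingolipid synthesis, and VPS4B, which acts in endosomal sorting, it was 2.05 in T0, 0.940 in T1, 1.08 in T4, 0.796 in T16 and 0.753 in T24. In all 4 of these runs T0 was in A on average, the E2 libraries lay closer to the border but still in A, and TamR lay below the 4 E2 libraries, at 2.75, 2.03 and -1.93 in the runs of NAT1, PDS5B and BCL2. The E2 mean lay below T0 over 25, 17 and 21 adjacent bins around them.

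The 2 longest runs lower in T0 held 7 bins. At chr6:8300001-9000000, with SLC35B3, which carries the sulfate donor PAPS into the Golgi, the mean score was -0.645 in T0, 0.372 in T1, 0.483 in T4, 0.383 in T16 and 0.139 in T24. The run mean was thus negative in T0 and positive in the 4 E2 libraries, and TamR was at -1.83. Single bins did not all follow the mean: the bin of the SLC35B3 start was in A in all 5 libraries, at 0.305 in T0 and 0.840 to 1.03 in the E2 libraries, and T4 was at -0.00606 in the first bin and T24 at -0.692 and -0.0132 in the fifth and sixth. At chr11:19200001-19900000, with CSRP3, a muscle LIM protein gene, and E2F8, a repressor of the E2F family, the mean was -2.67 in T0, -1.90 in T1, -1.84 in T4, -1.76 in T16 and -1.75 in T24, in B in all 5 libraries. A run of 5 bins at chr14:106500001-107000000, in the region of the immunoglobulin heavy chain genes and with no whole protein-coding gene in the annotation, went from 0.983 in T0 to between 2.47 and 3.19 in the E2 libraries. Another 5-bin run at chr8:97500001-98000000, with SDC2, a heparan sulfate proteoglycan of the cell surface, went from -0.886 in T0 to 0.257 in T1, 0.551 in T4, 0.983 in T16 and 0.800 in T24. Unlike in the SLC35B3 run, TamR lay above the 4 E2 libraries in the runs of chromosomes 11, 14 and 8, at -0.657, 7.14 and 2.49. Leaving out T1 extended the longest run lower in T0 to 12 bins and the longest run higher in T0 to 32, since fewer libraries have to be passed.

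**Figure D4:**
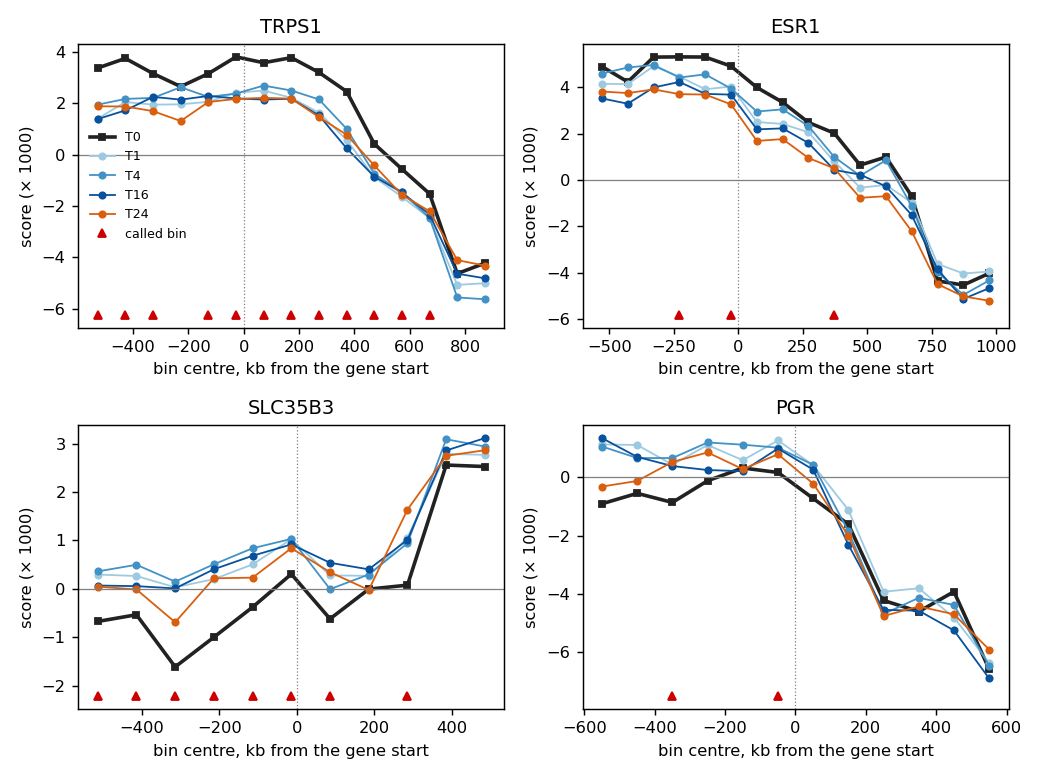
Compartment score (y axis, score × 1000) of the bins around 4 genes in T0 (black squares) and the E2 libraries (circles), by the distance of the bin centre from the gene start in kb along the direction of transcription (x axis), with red triangles under called bins. T0 lies above the E2 libraries over most of TRPS1 and ESR1 and below them in the called bins around SLC35B3 and PGR, while in the next bin upstream of the PGR start T0 (0.324) lies above T16 (0.214) and T24 (0.284).

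Genes were placed by the bin of their annotated start. Of 18856 autosomal protein-coding genes with a scored bin, 904 (4.79%) had a start bin lower in T0 and 889 (4.71%) one higher in T0, and the median E2 minus T0 difference was 0.0658. Genes that share a bin share its score. Of the genes outside the runs above, STXBP2, a syntaxin-binding protein gene of chromosome 19, had the largest difference among those lower in T0. Its bin scored 7.71 in T0, 11.3 in T1, 11.3 in T4, 12.4 in T16 and 12.3 in T24, and 13.5 in TamR. DOHH, which completes the hypusine of the translation factor eIF5A, followed at 12.0 in T0 and 14.7 to 16.6 in the E2 libraries. HNRNPCL1, LRRC37B and CLEC6A had differences of 3.01, 2.74 and 2.68. In the other direction, NUTM2D, LARP6, RAP1GAP, AC006014.1 and TOMM20 had differences between -2.72 and -2.16, with RAP1GAP, which inactivates the GTPase Rap1, at 12.3 in T0 and 9.42 to 10.6 in the E2 libraries, and TOMM20, a receptor of mitochondrial protein import, at 7.31 in T0 and 4.72 to 5.60 in the E2 libraries. HNRNPCL1, LRRC37B and NUTM2D belong to multicopy families, whose reads may not be placed uniquely, and their values are uncertain.

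Among the E2-induced genes, 5 of 36 scored members were lower in T0 and 2 were higher in T0, against 4.79% and 4.71% of all genes, and the median difference was 0.240 against 0.0658. The E2 mean was above T0 in 24 of the 36, and 31 of the 36 were in A in all 5 libraries. PGR, the progesterone receptor gene and a classical target of ERα, scored 0.171 in T0, 1.27 in T1, 1.02 in T4, 0.993 in T16 and 0.796 in T24. Over both bins of the PGR gene the mean was -0.276 in T0 and between 0.291 and 0.847 in the E2 libraries, and PGR was far in B in TamR (-6.62). TFF1 and TFF3, secreted trefoil peptides that are neighbours in 1 bin, scored 9.82 in T0, 10.8 in T1, 10.3 in T4, 10.6 in T16 and 10.6 in T24. They are 2 of the 5 genes lower in T0 but 1 bin.

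CXCL12, a chemokine induced by E2, scored 1.53 in T0, 2.71 in T1, 2.76 in T4, 2.84 in T16 and 2.80 in T24, an E2 spread of 0.0524 (SD) beside a difference of 1.25. EGR3, an early response transcription factor gene, scored 4.94 in T0, 6.14 in T1, 6.28 in T4, 6.99 in T16 and 6.53 in T24. Higher in T0 were BCL2, at 2.58 in T0 and 1.14 to 1.76 in the E2 libraries, and TPD52L1, a gene of the tumor protein D52 family, which was in B at -1.82 in T0 and between -3.40 and -2.66 in the E2 libraries. On ranks 3 members were lower in T0, and TFF1, TFF3, BCL2 and TPD52L1 were no longer called.

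The E2 target genes GREB1, MYC and CCND1 were not called. GREB1, a cofactor of ERα, scored 5.10 in T0, inside the range of 5.01 in T1, 5.54 in T4, 5.36 in T16 and 4.56 in T24. MYC scored 0.159 in T0 and 0.873, 0.530, 0.965 and 0.725 in T1, T4, T16 and T24, below all 4 but with a gap of 0.371 against a range of 0.434. CCND1, which encodes cyclin D1, scored 10.7 in T0 and 12.1, 11.1, 11.0 and 12.2 in the E2 libraries, again below all 4 with a gap smaller than their range.

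The median difference of the luminal transcription factors had the opposite sign, but so had that of the markers of other lineages. Of 19 scored members, 3 were higher in T0 and 0 lower, against 4.71% and 4.79% of all genes, with a median difference of -0.431 and the E2 mean above T0 in 7 of the 19. The median was negative in each library, with -0.431 for T1, -0.212 for T4, -0.455 for T16 and -0.841 for T24. The 7 scored markers of blood, endothelium, muscle and neurons had a median difference of -0.308, with the E2 mean above T0 in 2 of the 7, and the 8 luminal markers one of -0.322. On ranks the medians were -0.192 for the luminal transcription factors and -0.420 for the markers of other lineages. Without T24 they were -0.357 and -0.0664. By library, the median of the markers of other lineages was -0.0400 for T1, 0.0779 for T4, -0.103 for T16 and -0.480 for T24. The 3 lists thus shared a negative median for the E2 mean, but not in each library. The luminal lists also share members, among them ESR1 and FOXA1. ESR1 had its annotated start in a bin at 4.90 in T0, 4.03 in T1, 3.94 in T4, 3.68 in T16 and 3.26 in T24. This start is that of an upstream alternative promoter, and over the 6 bins of the ESR1 gene the mean was 2.89 in T0, 1.91 in T1, 2.24 in T4, 1.72 in T16 and 1.23 in T24, and -0.510 in TamR. The E2 mean was below T0 in all 6 bins, and 2 were called. Over the whole gene T0 lay above all 4 E2 libraries by 0.658, less than their range of 1.01, so that ESR1 was not called on gene-body means and 2 of the 19 members were. FOXA1, the pioneer factor that opens chromatin for ERα, scored 2.40 in T0, 1.37 in T1, 1.47 in T4, 0.882 in T16 and 0.691 in T24. TRPS1, described above, was the third. GATA3, the remaining luminal master regulator among the markers, scored 2.12 in T0 and 0.711, 1.53, 1.19 and 0.932 in T1, T4, T16 and T24, below T0 in all 4 but with a gap smaller than their range.

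**Figure D5:**
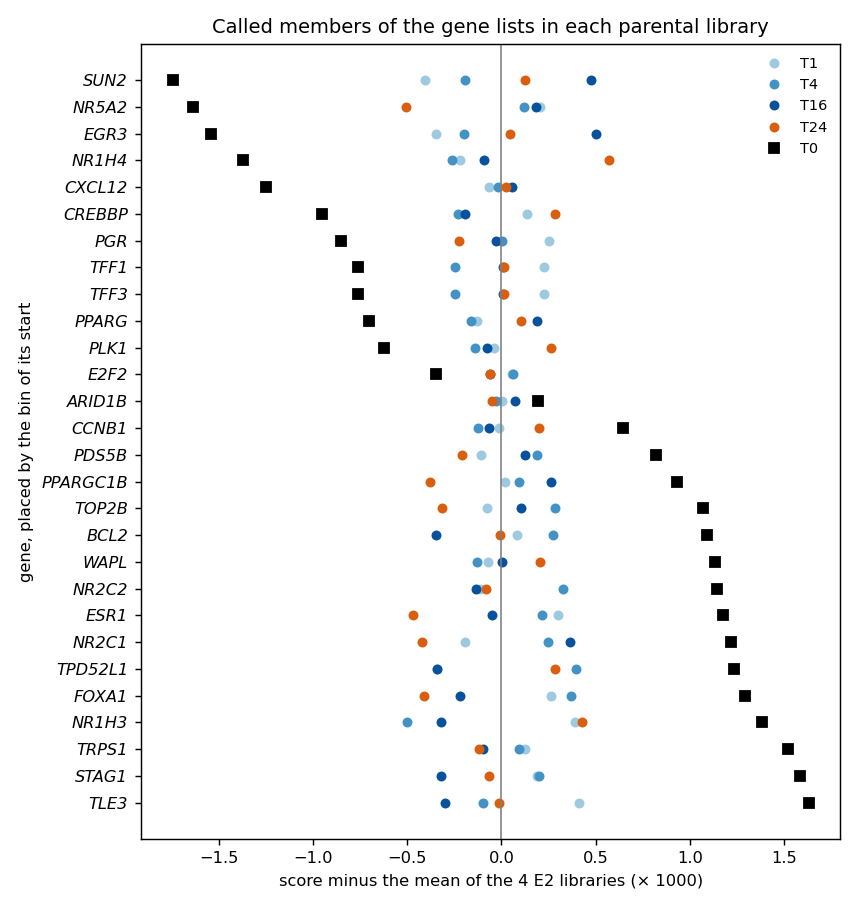
Score minus the mean of the 4 E2 libraries (x axis, score × 1000) for the 28 genes of the lists whose start bin was called (y axis, ordered by difference), with a black square for T0 and a circle for each E2 library. T0 lies to the left of all 4 circles in 12 genes, from SUN2 to E2F2, and to the right in 16, from ARID1B to TLE3, a separation that the call requires.

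Among the coregulators of ERα, 1 of 23 scored members was lower in T0 and 3 were higher, against 4.79% and 4.71% of all genes, with a median difference of -0.135 that turned to 0.0988 without T16. On gene-body means 0 were lower, and on ranks 1 was higher. The acetyltransferase gene CREBBP scored 10.4 in T0 and 11.2 to 11.7 in the E2 libraries. TLE3, a Groucho-type corepressor, scored 8.32 in T0, 7.10 in T1, 6.59 in T4, 6.39 in T16 and 6.67 in T24. PPARGC1B, a coactivator of nuclear receptors, had a difference of -0.934, and ARID1B, a subunit of the SWI/SNF remodeller, one of -0.196 with an E2 range of 0.119. The call of ARID1B thus rests on a difference below the median of all bins.

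Genes of nuclear architecture included 1 of 31 members lower in T0 and 4 higher, against 4.79% and 4.71% of all genes, with a median difference of -0.0257. On gene-body means 2 were higher, and on ranks WAPL and SUN2 were no longer called. STAG1, a subunit of cohesin, scored 3.00 in T0, 1.60 in T1, 1.61 in T4, 1.09 in T16 and 1.35 in T24. WAPL, which releases cohesin from DNA, scored 1.77 in T0, 0.558 in T1, 0.502 in T4, 0.633 in T16 and 0.834 in T24, and PDS5B, in the run of chromosome 13, scored 4.63 in T0 and 3.60 to 4.00 in the E2 libraries. The fourth was TOP2B, a topoisomerase, in B at -0.235 in T0 and between -1.62 and -1.02 in the E2 libraries. SUN2, a protein of the inner nuclear membrane that links the lamina to the cytoskeleton, was lower in T0, at 13.9 against 15.2 in T1, 15.4 in T4, 16.1 in T16 and 15.8 in T24.

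Of the 46 nuclear receptor genes, 4 were lower in T0 and 4 higher, against 4.79% and 4.71% of all genes, with a median difference of 0.0571 that turned to -0.0148 on gene-body means and -0.00523 on ranks. On gene-body means 2 were lower and 3 higher. NR5A2 scored -1.99 in T0, -0.147 in T1, -0.233 in T4, -0.171 in T16 and -0.859 in T24, and the bile acid receptor gene NR1H4 scored -2.55 in T0 and -1.44 to -0.605 in the E2 libraries, both less deep in B after E2. NR1H3, the liver X receptor α gene, scored 11.7 in T0 and 9.81 to 10.7 in the E2 libraries, and NR2C1 6.98 in T0 and 5.33 to 6.12. The other members called, PGR and PPARG lower in T0 and ESR1 and NR2C2 higher in T0, include 2 (PPARG and NR2C2) that are named here after their values were seen.

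Of the 32 genes of the cell cycle and replication, 2 were lower in T0 (6.25%) and 1 higher (3.13%), close to the 4.79% and 4.71% of all genes, with a median difference of 0.205, and of 0.0298 on ranks. On gene-body means 1 was lower and 2 were higher. The mitotic kinase gene PLK1 scored 1.95 in T0 and 2.43 to 2.83 in the E2 libraries, the transcription factor gene E2F2 11.3 in T0 and 11.6 to 11.7, and the mitotic cyclin gene CCNB1 7.39 in T0 and 6.62 to 6.94. The differences were 0.621, 0.348 and -0.646.

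As a check of the label, the 8 luminal markers (ESR1, PGR, GATA3, FOXA1, KRT8, KRT18, KRT19 and EPCAM) were in A in all 5 parental libraries, with scores from 0.171 to 14.3. Their summed score was 55.0 in T0 and 51.3 to 54.1 in the E2 libraries. KRT8 and KRT18 share a bin, so the 8 markers lay in 7 bins and the score of that bin enters the sum for both. Of the 7 scored markers of blood, endothelium, muscle and neurons, 4 were in B and 3 (CD3E, CDH5 and MYOD1) in A in all 5 libraries, with a summed score of 8.33 in T0 and 4.61 to 8.08 in the E2 libraries. The blood marker CD3E, at 9.03 in T0, scored above the luminal markers ESR1, PGR, GATA3, FOXA1 and EPCAM. The score thus does not separate the lineages gene by gene. None of the 7 was called, and the largest differences were those of MYF5 (-0.940) and NEUROD1 (-0.467). A compartment score is not expression, and the files hold none.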

How the data were processed

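TCC libraries of T47D cells were made by the authors with HindIII, and the series holds 1 sample per condition. Per the methods of the study, bowtie2 was used for iterative alignment to hg19. HiCLib then removed poorly covered bins, capped the largest counts between chromosomes, balanced the matrix by iterative correction, masked the counts inside chromosomes and computed eigenvectors. The values the authors deposited are 1 score per bin of 100 Kb, signed so that A is positive, and a score of 0 marks a bin without a value. Contact counts are not in these files, so depth is unknown and no interval could be given. The study states that its data had replicates and that those of MCF7 were combined before compartments were called. Whether this was done for T47D is not given in the sources used here, and each file counts here as 1 library.

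Scores were multiplied by 1000. The E2 mean minus T0, the SD and range of the E2 scores and the call were computed per bin, with no test. GC content, HindIII sites and the assembly gaps came from GRCh37, whose chromosome lengths match the bins, and starts of protein-coding genes from GENCODE v44 lifted to GRCh37. Named genes were those of the 4 longest runs per direction, the 5 largest differences per direction (1 per bin), up to 4 called members of each list (or the 2 largest differences where none was called), and GREB1, TFF1, PGR, ESR1, MYC and CCND1. The members and the lists were chosen with earlier results of these data known. Of the list symbols named here, WISP2 and PECAM1 were not found in the annotation, and CITED1 and EMD had no value among the bins used. The code for the calls was tested on simulated scores with known shifts, which gives no error rate for the calls reported. Python 3.11.15, numpy 2.4.6 and pandas 2.3.3 were used. Alternatives were other scales, call rules, bin sets and sizes, and each E2 library left out.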

Additional observations from a re-analysis of the deposited data

Results flagged for a closer look

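Over the 5 parental libraries, T0 had the largest median absolute difference between adjacent bins, 0.704 against 0.580 to 0.589, and its gap to the nearest library took 0.925 of the whole range, above the critical value of 0.71. T24 had the lowest share of bins with a positive score, 44.8% against 46.9 to 47.7%, with a gap of 0.717 of the range. Chance passes this limit in about 1 of 20 groups, and 5 library measures were examined at both ends.

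T4 and T24 differed from T0 in opposite directions in 8 of the 10 score deciles, and this difference was not tested. T24 minus T0 was 0.605, 0.334, 0.113 and 0.814 in deciles 1, 2, 3 and 10, where T4 minus T0 was -0.0939, -0.128, -0.0294 and -0.00488. It was -0.110, -0.326, -0.427 and -0.437 in deciles 4, 5, 6 and 7, where T4 minus T0 was 0.0717, 0.113, 0.158 and 0.0889.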

How the results depend on the processing

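No paired analysis was possible because there is a single library of every condition. Of 274 recomputed values, 213 stayed within 1.5 times the count or within 1 SD over the E2 libraries, 60 moved and 1 reversed from a value larger than that SD. Where the SD is larger than the value, this limit can hardly be left. The decile 10 difference of 0.329, with an SD of 0.349, counts among the 213 although it was 0.0115 on ranks. These counts include another 8 values that changed sign from a value within their SD. All of these 8 count among the 213 except the nuclear receptors without T1, which count among the 60. These were decile 1 (-0.0103 on ranks, -0.00493 without T24) and the median differences of the coregulators (0.0988 without T16), the genes of nuclear architecture (0.0253 without T4, 0.0397 without T16) and the nuclear receptors (-0.0148 on gene-body means, -0.00523 on ranks, -0.0345 without T1). The shares of bins lower and higher in T0 were 23.2% and 26.8% with any gap, 0.706% and 1.03% with the gap above Dixon's critical value and 10.6% and 13.5% with T0 over 2 SD from the E2 mean. They moved by less than 1.5 times with other scales, bin sizes, smoothing, chromosome X or centring on each chromosome. With each E2 library left out they ranged from 6.89 to 10.6% and from 8.63 to 12.4%, both highest without T24, since a smaller range is easier to pass and no call can be lost this way. The median absolute difference was 0.305 over 500 Kb, 0.277 over 1 Mb and 0.303 with a running mean over 5 bins (chosen after seeing the data). The difference of decile 8 reversed to 0.00222 on ranks, which leave little room for a difference within deciles. The correlation with gene starts was 0.0315 within score deciles and 0.0197 on ranks. On ranks the E2-induced genes counted 3 lower and 1 higher in T0 with a median difference of 0.114, and the luminal transcription factors 5 higher. Of the 38 named genes called, 26 remained called on ranks, and the cause was not tested. Leave-one-out, also chosen after seeing the data for runs and lists, gave longest runs of 8 to 12 bins lower and 9 to 32 higher in T0, 169 to 262 runs of 3 or more, 6 to 9 E2-induced genes lower and 3 to 4 higher, and 3 to 7 luminal factors higher. The limits are 1 library per condition, unknown depth, a score relative to its library, and a difference in which T0 is the only library on 1 side.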

Other observations

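The following gene families were chosen after the values were seen, and their members share bins. Over all genes, 4.79% were lower in T0 and 4.71% higher, and over all bins 4.15% and 5.53%. Of 39 HOX genes of the 4 clusters, which specify position along the body axis, 11 had a start bin higher in T0 and 0 lower, in 3 of 9 bins, and their median score was 4.11 in T0, 3.41 in T1, 4.30 in T4, 4.09 in T16 and 2.73 in T24. Protocadherin genes, 63 in 18 bins, had a median difference of -0.846, with 5 genes of 1 bin higher in T0. Their median score was 5.12 in T0, 3.71 in T1, 4.31 in T4, 4.00 in T16 and 3.26 in T24, below T0 in all 4 E2 libraries.

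The 249 zinc finger genes of chromosome 19 had a median difference of 0.487, below the mean of 0.588 over the bins of that chromosome, with 2 genes in 1 bin lower in T0 (0.803%) and 8 genes in 3 bins higher (3.21%). Of 23 beta-defensin genes, 4 in 2 bins were lower in T0. Of 403 olfactory receptor genes in 168 bins, 6 were lower (1.49%) and 3 higher (0.744%) in T0, both below the shares over all genes, and the median score went from -6.80 in T0 to -5.87 in T24 with T4 at -6.94 and T16 at -6.86. None of 55 keratin genes, in only 16 bins, and 94 keratin-associated protein genes, in only 19 bins, was called. Ribosomal protein genes, 88 in 83 bins, had a median difference of 0.115, with 5 lower (5.68%) and 3 higher (3.41%) in T0, close to the shares over all genes.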
